A study of Mus musculus with 10 samples.

Results

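Muscle atrophy genes and targets of the FoxO transcription factors were followed in gastrocnemius, a calf muscle, of male C57BL/6 mice from an exercise ancestry study. The list held 10 genes, and a gene was taken where the array annotation gave a probe set that symbol and no other. This found 9 of 10: Fbxo32, Trim63, Foxo1, Foxo3, Klf15, Cebpd, Ddit4, Mt1 and Mt2, each with 1 probe set, among 19938 genes in the table. All 9 lay among the 11963 genes kept after a filter on low signal, at or above 3.23 on the log2 scale. Cdkn1a, an inhibitor of cyclin-dependent kinases, shares its probe set with another symbol, so it was not described. Cebpd, with a mean of 3.33, was close to the filter.

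Each of the 10 arrays measured RNA pooled from 5 males. F0 EX mice had voluntary exercise and F0 SED mice were sedentary; both were 28 weeks old and gave 1 pool each. F1 EX and F1 SED mice were offspring of like-exposed F0 pairs, and F2 EX and F2 SED mice came from matings between F1 littermates. All F1 and F2 mice were themselves sedentary, were 8 weeks old and gave 2 pools per group; for them EX and SED stand for ancestry alone. Signals are given on the deposited log2 scale, and every difference is a difference of log2 signals. The design text counts 10 males per ancestry, as many as 2 pools of 5 would hold, but no label assigns animals to pools, so a p-value reflects only variation between pools, which may be technical. Pooling hides the spread between animals, and in whole muscle fewer cells of a type and less RNA per cell cannot be told apart. Markers of myofibres (10 of 10 kept) had signals between 11.12 and 13.54.

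In skeletal muscle, FoxO factors are held in the cytoplasm when insulin or IGF-1 activates the kinase Akt. When that signal falls, as in fasting, disuse or glucocorticoid excess, FoxO1 and FoxO3 enter the nucleus and drive genes of protein breakdown. Among those are the ubiquitin ligases atrogin-1 (Fbxo32) and MuRF1 (Trim63), which mark proteins for the proteasome. Klf15 and C/EBPδ (Cebpd) are transcription factors induced by glucocorticoids, REDD1 (Ddit4) restrains the growth kinase mTORC1, and the metallothioneins Mt1 and Mt2 bind zinc and other metals and are often raised in wasting muscle.

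Promoter windows from RefSeq (build GRCm38.p6, 250 bases before to 50 after the annotated start) were given for 7 of the 9 genes, all but Fbxo32 and Cebpd. They are shown for Trim63, because FoxO factors act on its promoter, and for Mt1 and Mt2, because metallothionein promoters are the usual example of metal response elements. Capitals mark the core of a FoxO site (TGTTTAC) in Trim63 and the core of a metal response element (TGCGCNC) in Mt1 and Mt2, found on either strand. The windows lie at chr4:134314870-134315169 (Trim63), chr8:94178839-94179138 (Mt1) and chr8:94172368-94172667 (Mt2), all on the plus strand.
Trim63: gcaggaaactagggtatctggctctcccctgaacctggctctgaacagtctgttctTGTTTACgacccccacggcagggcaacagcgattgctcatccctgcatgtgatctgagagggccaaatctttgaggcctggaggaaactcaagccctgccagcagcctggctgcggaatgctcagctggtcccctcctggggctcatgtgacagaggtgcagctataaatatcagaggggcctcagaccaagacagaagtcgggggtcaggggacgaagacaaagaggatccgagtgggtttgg
Mt1: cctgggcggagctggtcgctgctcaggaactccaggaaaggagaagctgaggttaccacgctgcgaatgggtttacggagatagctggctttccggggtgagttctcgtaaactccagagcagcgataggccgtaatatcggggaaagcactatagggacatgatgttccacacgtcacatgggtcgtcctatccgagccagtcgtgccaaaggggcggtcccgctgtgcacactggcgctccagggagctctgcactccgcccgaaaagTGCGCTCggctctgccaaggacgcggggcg
Mt2: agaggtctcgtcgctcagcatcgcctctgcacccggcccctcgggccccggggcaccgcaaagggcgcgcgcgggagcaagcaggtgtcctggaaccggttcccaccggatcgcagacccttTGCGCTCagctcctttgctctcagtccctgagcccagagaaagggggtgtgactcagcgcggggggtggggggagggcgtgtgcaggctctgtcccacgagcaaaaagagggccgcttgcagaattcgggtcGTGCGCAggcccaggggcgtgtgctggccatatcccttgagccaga
The FoxO core was present in 1 of 7 windows, that of Trim63, beginning 194 bases before the start, and in 3.66% of 32544 promoter windows of that length. The metal response core was present in 5 of 7 windows, those of Klf15, Foxo3, Ddit4, Mt1 and Mt2, and in 15.5% of all windows. Mt2 had 2 matches, 128 bases before the start on the plus strand and 4 bases after it on the minus strand, and Mt1 had 1, which began 20 bases after the start. A match describes the letters only, and its place is given against the annotated start. Other forms of these elements and bases outside the windows were not searched.

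Across the 10 pools, Ddit4 varied most among the 9 genes and Foxo1 least. The SD over all pools was 0.54 for Ddit4, 0.38 for Fbxo32, 0.34 for Mt2, 0.30 for Cebpd, 0.27 for Klf15, 0.22 for Foxo3, 0.19 for Mt1, 0.11 for Trim63 and 0.09 for Foxo1. Of the pair of ubiquitin ligases Fbxo32 varied more than Trim63, and of the FoxO factors Foxo3 more than Foxo1. Part of this spread was between pools of one group: the 2 pools of F1 EX differed by 1.11 in Mt2 and by 0.95 in Ddit4, and those of F1 SED by 0.71 in Cebpd and 0.67 in Ddit4. A pair of arrays stood apart from the rest, F0 SED (median correlation 0.974 with the remaining arrays, Pearson r across kept genes) and F1 EX pool 1 (0.979), against 0.986 to 0.993 elsewhere. In F1 EX, 15.3% of all kept genes differed between pools by at least 0.5, against 2.33% to 2.88% in the other descendant groups.

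**Figure D1:**
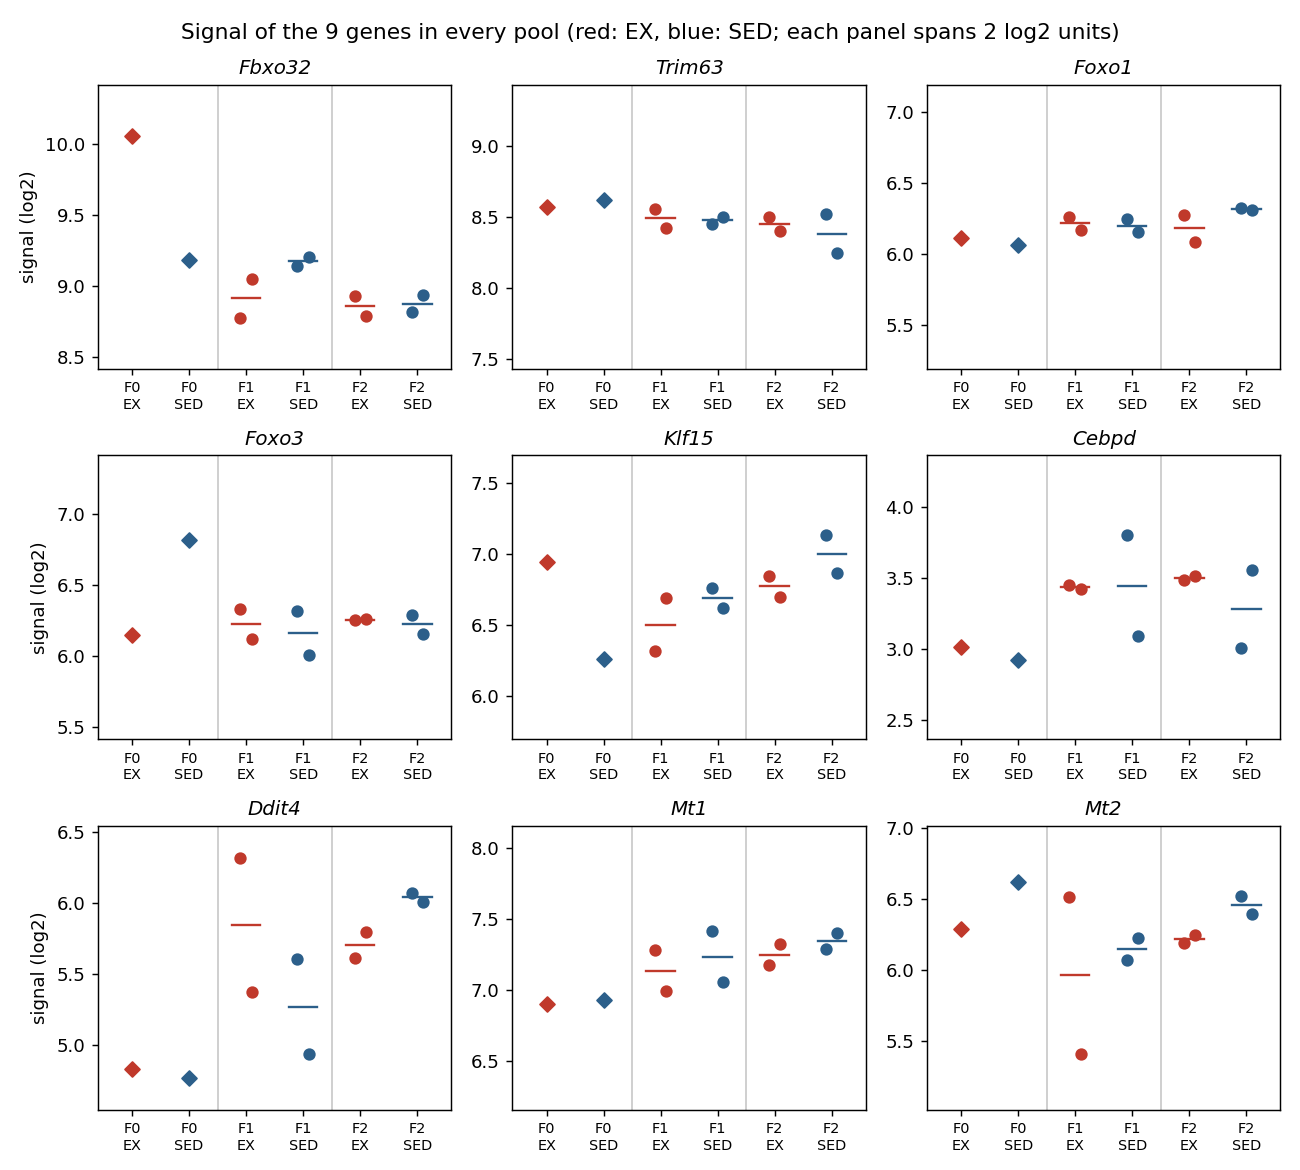
Log2 signal (y axis) of the 9 genes in each pool, by group (x axis), with EX in red, SED in blue, F0 pools as diamonds, F1 and F2 pools as circles, and a line at the mean of each pair of pools. Fbxo32 stood out in F0 EX at 10.06, Foxo3 in F0 SED at 6.82, and Ddit4 was lowest in the F0 pools.

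The F0 pair, 1 exercised and 1 sedentary pool, addressed the direct response to voluntary exercise, and it allowed no test. Fbxo32 was 0.88 higher in F0 EX than in F0 SED (1.83-fold), Klf15 was 0.69 higher (1.61-fold) and Foxo3 was 0.67 lower (1.59-fold). These 3 of 9 genes differed by at least 0.5, as did 20.7% of all kept genes, 15.3% higher and 5.38% lower in F0 EX. Each of the 3 differences was also larger than every gap between the 2 pools of a descendant group, which reached 0.28 for Fbxo32, 0.37 for Klf15 and 0.31 for Foxo3, and this held for 18.2% of all kept genes.

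The pool that set each difference was not the same. Fbxo32, atrogin-1, had 10.06 in F0 EX, the highest of all 10 pools, against 9.18 in F0 SED, which lay within the descendant pools (lowest 8.77, median 8.93, highest 9.21). Foxo3 had 6.15 in F0 EX, within the descendant pools (6.01, 6.25 and 6.33), against 6.82 in F0 SED, the highest of the 10. Klf15 had 6.94 in F0 EX, again within the descendant pools (6.32, 6.73 and 7.13), against 6.26 in F0 SED, the lowest of the 10. So Fbxo32 stood out in the exercised pool, whereas Foxo3 and Klf15 stood out in F0 SED, an array that stood apart over all genes.

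The other ligase and the other FoxO factor gave no such difference. Trim63, MuRF1, had 8.57 in F0 EX and 8.62 in F0 SED, and Foxo1 had 6.11 in F0 EX and 6.06 in F0 SED. Ddit4 had 4.83 in F0 EX and 4.77 in F0 SED, Cebpd 3.02 in F0 EX and 2.93 in F0 SED, and Mt1 6.90 in F0 EX and 6.93 in F0 SED. Mt2 differed by -0.33, with 6.29 in F0 EX and 6.63 in F0 SED, less than the gap between the pools of F1 EX. The 2 arrays differ in their overall level, and the median difference over all kept genes was 0.08 as deposited, 0.22 with each array centred on its median and 0.01 with quantile normalization. The differences of Fbxo32 were 1.02 and 0.61 under centring and quantile normalization, those of Foxo3 -0.52 and -0.85, and those of Klf15 0.83 and 0.48. The sign of Trim63 and of Mt1 turned with centring (0.10 and 0.12), and that of Foxo1 with quantile normalization (-0.09).

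**Figure D2:**
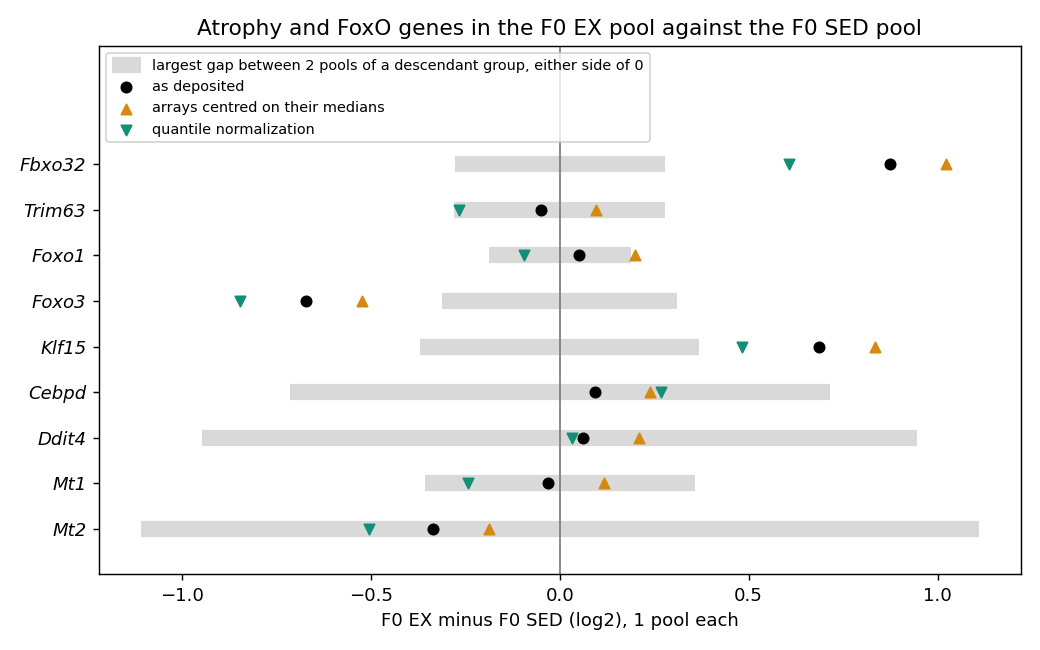
F0 EX minus F0 SED on the log2 scale (x axis) for the 9 genes, as deposited (circles) and under 2 other scalings (triangles), with grey bars reaching from 0 to the largest gap between 2 pools of a descendant group on either side. Fbxo32, Foxo3 and Klf15 lie outside their grey bars under each of the 3 scalings.

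F0 mice were next compared with their descendants, a comparison in which age, generation and breeding cannot be told apart. Only the F0 EX pool was exercised, and with it as the only F0 pool exercise cannot be told apart from these either. None of the 9 genes passed the test (limma, Benjamini-Hochberg adjusted over 11963 genes, threshold 0.05), against 2.33% of all genes, 0.794% higher and 1.54% lower in F0. Of the 9 genes, 4 had an unadjusted p under 0.05 (Ddit4, Fbxo32, Mt1 and Cebpd), against 17.6% of all genes. Cebpd had both F0 signals under the filter level and was kept through its descendant pools, where it was higher, so it adds no support to that count. In 3 of 9 the F0 pools did not overlap the 8 descendant pools, Ddit4 and Mt1 below them and Trim63 above them, against 12.4% of all genes, 5.79% above and 6.65% below. The median estimate over the 9 genes was -0.14, against -0.02 over all genes.

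Ddit4, the mTORC1 brake, had the largest estimate. It had 4.83 in the F0 EX pool and 4.77 in the F0 SED pool, against a lowest, median and highest of 4.94, 5.71 and 6.32 in the descendant pools. Both F0 pools lay below every descendant pool, with F1 SED pool 2 closest to them. The difference was -0.91 (95% interval -1.48 to -0.35, 1.88-fold, SE 0.26, limma adjusted p = 0.0978). Of 8 fits without 1 descendant pool Ddit4 passed in 2 and not in 6 (limma adjusted p up to 0.171). Leaving out F1 EX pool 1, the highest, gave -0.78 (limma adjusted p = 0.0258), in a fit that called 4.88% of all genes. Leaving out F1 SED pool 2, the lowest, gave -1.02 (0.0400), in a fit that called 1.65%. With array weights the difference was -0.76 (limma adjusted p = 0.641). Without both arrays that stood apart, which left F0 EX as the only F0 pool, it was -0.66.

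Among the ubiquitin ligases, Fbxo32 had an estimate of 0.67 in F0 (95% interval 0.26 to 1.07, limma adjusted p = 0.0943), with means of 9.62 in F0 and 8.96 ± 0.16 in descendants (SD, n = 8). That estimate came from the F0 EX pool: with F0 EX as the only F0 pool it was 1.17 (limma adjusted p = 6.90e-03), and with F0 SED as the only one it was 0.16 (adjusted p = 0.557). A lone pool was assumed to vary like the others in these fits. They adjusted for ancestry, which set a lone F0 pool against descendants of its own ancestry. Without both arrays that stood apart, which again left F0 EX as the only F0 pool, the estimate of Fbxo32 was 1.09. With quantile normalization it was 0.72 (limma adjusted p = 0.0328), with centred arrays 0.66 (0.150) and with array weights 0.63 (0.419). Fbxo32 passed in 0 of 8 fits without 1 descendant pool (limma adjusted p up to 0.164). Trim63 had 8.57 in F0 EX and 8.62 in F0 SED, above descendant pools of 8.24 at the lowest, 8.47 at the median and 8.55 at the highest, and its difference was 0.14 (95% interval -0.09 to 0.38).

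The FoxO factors themselves had estimates of -0.14 for Foxo1 (95% interval -0.37 to 0.09) and 0.27 for Foxo3 (-0.07 to 0.60). Foxo3 was 0.63 with F0 SED as the only F0 pool (limma adjusted p = 0.0316, in a fit that called 10.3% of all genes) and -0.09 with F0 EX as the only one, so that its sign followed the pool used. Klf15 had an estimate of -0.14 (95% interval -0.53 to 0.25), which was 0.31 with F0 EX alone and -0.59 with F0 SED alone (limma adjusted p = 0.0538). Cebpd had an estimate of -0.45 (95% interval -0.83 to -0.06, limma adjusted p = 0.220), with F0 pools at 3.02 and 2.93 and descendants between 3.01 and 3.81, and 1 descendant pool, F2 SED pool 1, overlapped F0.

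The metallothioneins, neighbouring genes on chromosome 8, gave estimates of opposite sign. Mt1 had 6.90 in the F0 EX pool and 6.93 in the F0 SED pool, against a lowest, median and highest of 6.99, 7.29 and 7.41 in descendants, a difference of -0.33 (95% interval -0.60 to -0.06, limma adjusted p = 0.196). Both F0 pools lay below every descendant pool, by a narrow margin from F1 EX pool 2. Mt2 had 6.29 in the F0 EX pool and 6.63 in the F0 SED pool, against 5.41, 6.24 and 6.53 in descendants, and its difference of 0.26 had an interval from -0.19 to 0.71. Probe sequences were not used here, so signal shared between these similar genes was not tested.

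**Figure D3:**
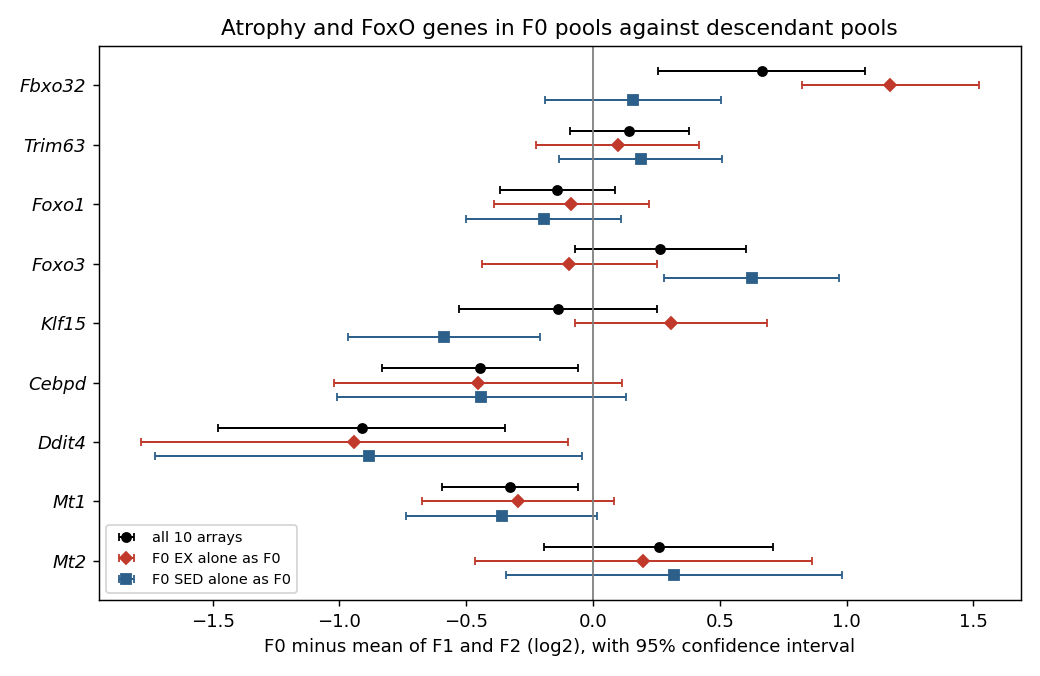
F0 minus the mean of F1 and F2 on the log2 scale (x axis) with 95% confidence intervals for the 9 genes. Fits used all 10 arrays (black circles), or F0 EX (red diamonds) or F0 SED (blue squares) as the only F0 pool. Each fit adjusted for ancestry, which set a lone F0 pool against descendants of its own ancestry. The estimates of Fbxo32, Foxo3 and Klf15 depend on the F0 pool, with Fbxo32 at 1.17 for F0 EX and 0.16 for F0 SED, while those of Ddit4 lie between -0.94 and -0.88.

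Genes of neighbouring pathways were read from 10 lists with 143 kept genes, each counted once. A gene in more than 1 list is counted in each list's size and in sums of these sizes, as Eif4ebp1 in the FoxO and mTOR lists. In F0 against descendants 5 of the 143 passed, 2 higher and 3 lower, in 3 of the lists, against 2.33% of all genes. None passed among 19 genes listed as ubiquitin ligases of muscle wasting (median estimate 0.05), of which Usp14 and Usp19 encode proteases that remove ubiquitin. The same held for 21 autophagy and lysosome genes (-0.03) and 18 other FoxO family members and targets (0.03). None passed either among 13 glucocorticoid-responsive genes (median -0.15), 14 genes of mTOR control (0.13), 15 of branched-chain amino acid catabolism (0.00) or 14 of myostatin and activin signalling (0.09). In these lists the smallest adjusted p-values with limma belonged to the F-box protein Fbxo21, with an estimate of 0.53 (0.0625), Deptor, an inhibitor of mTOR, with -0.42 (0.0627), the growth factor Gdf11 with 0.53 (0.0671), and the pyruvate dehydrogenase kinase Pdk4 with -0.73 (0.0707). With F0 SED as the only F0 pool, 15 of the 114 genes in these 7 lists passed, in 6 of the lists, in a fit that called 10.3% of all genes; with F0 EX as the only one 0 did, in a fit that called 0.719%. Those that passed with F0 SED alone went both ways among the other FoxO and mTOR genes and were higher in the ubiquitin ligase list. In the lists of branched-chain amino acid catabolism, autophagy and myostatin signalling they were lower.

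The 5 genes that passed belonged to the lists of metal response (12 kept, 2 lower, median -0.25), p53 targets (12 kept, 1 higher, median 0.03) and denervation response (10 kept, 1 higher and 1 lower, median -0.18). Mybph, which encodes myosin-binding protein H, was lower in F0: its signal was 8.45 in F0 EX and 7.80 in F0 SED, and descendant pools averaged 10.69 ± 0.27 (SD, n = 8), a difference of -2.57 (limma adjusted p = 4.99e-06). Its call held in all 17 alternatives, with differences between -2.92 and -2.21. Musk, the receptor kinase of the neuromuscular junction, was higher, with F0 signals of 8.58 (EX) and 8.01 (SED), whereas descendants averaged 7.62 ± 0.14, a difference of 0.67 (limma adjusted p = 0.0307). Eda2r, a receptor gene induced by p53, was higher as well, with F0 signals of 6.03 (EX) and 5.33 (SED) against a descendant mean of 4.83 ± 0.26, a difference of 0.85 (limma adjusted p = 0.0244). The transferrin receptor gene Tfrc had a difference of -0.58, with F0 signals of 9.49 (EX) and 9.20 (SED) against a descendant mean of 9.93 ± 0.18 (limma adjusted p = 0.0308). The zinc importer gene Slc39a6 was lower too, with F0 signals of 2.73 (EX) and 3.02 (SED) against a descendant mean of 3.45 ± 0.15, a difference of -0.58 (limma adjusted p = 0.0323), with both F0 signals under the filter level of 3.23. Slc39a6 was kept through its descendant pools, the group in which it was higher, so its call adds no support to the count of 5; with no filter its adjusted p was 0.0420.

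These last 4 calls did not hold in every alternative. With array weights, in a fit that called 0.318% of all genes and left no pool out, all 4 ended, with limma adjusted p-values of 0.375 for Musk, 0.464 for Eda2r, 0.412 for Tfrc and 0.306 for Slc39a6. With arrays centred on their medians that of Musk ended (0.0578). The call of Musk ended with F0 SED as the only F0 pool (0.40, limma adjusted p = 0.145), and those of Eda2r (0.63, 0.106) and Slc39a6 (-0.35, 0.143) ended there too. With F0 EX as the only one those of Eda2r (1.08, 0.0746) and Tfrc (-0.42, 0.307) ended. Without both arrays that stood apart those of Eda2r (1.13, 0.0600) and Tfrc (-0.35, 0.224) ended. Among single descendant pools, leaving out 1 ended the call of Musk in 5 of 8 cases, of Eda2r in 3, of Tfrc in 5 and of Slc39a6 in 5, with adjusted p-values up to 0.0748.

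**Figure D4:**
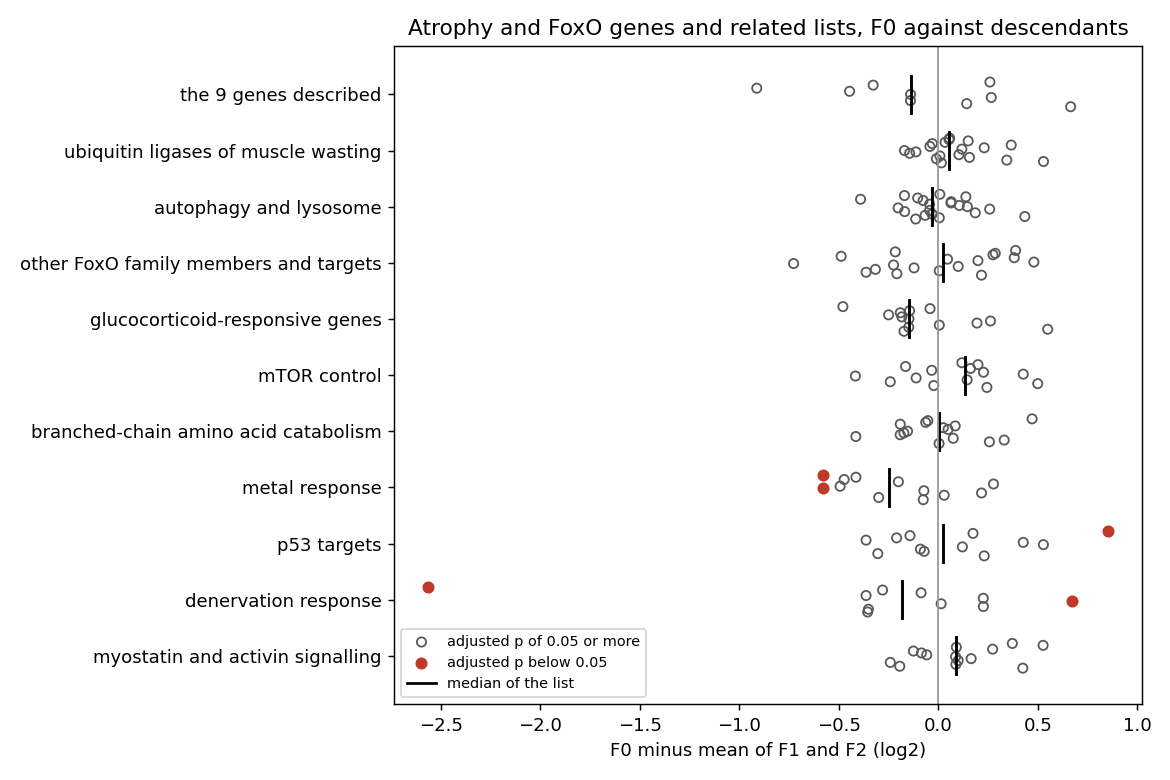
F0 minus the mean of F1 and F2 on the log2 scale (x axis) for the 9 genes and the 10 related lists, with 1 circle per gene, filled red where the limma adjusted p was below 0.05, and a bar at each list's median. Mybph lies at -2.57, the other 4 called genes lie between -0.58 and 0.85, and none of the 9 genes is filled.

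Markers of other cell types also moved with F0. Over all genes 1.54% passed as lower and 0.794% as higher in F0. Of 6 fibroblast markers 3 passed as lower in F0, among them the collagen genes Col1a1 (-2.27, limma adjusted p = 1.47e-06) and Col3a1 (-1.50). The mean signal of the fibroblast list was 7.84 to 8.11 in F0 pools, against 8.68 to 9.08 in descendant pools. Of 6 endothelial markers 2 were lower (Pecam1 and Cdh5), with a mean signal of 6.28 to 6.55 in F0 against 6.82 to 6.96. The call of Cdh5 ended in 8 of 17 alternatives, among them both fits with 1 F0 pool (adjusted p = 0.0587 with F0 EX and 0.109 with F0 SED), quantile normalization (0.0555), array weights and 4 of 8 fits without 1 descendant pool. That of Pecam1 ended in 3 of 17. Of 3 kept keratinocyte markers 2 were higher (Krt5 and Krt10), with a mean signal of 4.47 to 5.29 in F0 against 3.36 to 3.92. Krt5, at a mean of 5.14 in F0 and 3.07 in descendants, was under the filter level in descendants and was kept through F0, where it was higher, so its call adds no support; Krt10 averaged 5.53 in F0 and 3.90 in descendants. With F0 EX as the only F0 pool the calls of Col1a1 and Col3a1 held. Those of the fibroblast marker Mfap5 (-0.79), Pecam1 (-0.47), Cdh5 (-0.80), Krt5 (1.47) and Krt10 (0.85) ended there. The list medians moved towards 0. They went from -0.71 to -0.45 (fibroblast), from -0.51 to -0.33 (endothelial) and from 1.63 to 0.85 (keratinocyte). No myofibre, adipocyte, macrophage or erythroid marker passed (10, 5, 7 and 2 kept). With F0 SED as the only F0 pool, in the fit that called 10.3% of all genes, 4 myofibre markers (1 higher, 3 lower) and 1 macrophage marker (lower) passed. The part of any of these lists in the values of the 9 genes was not tested.

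Adipocyte markers differed between the F1 groups in these libraries; their mean signal was 5.21 and 5.40 in F1 EX against 6.19 and 5.93 in F1 SED. Of the 5 kept markers 0 passed with limma and 4 had an unadjusted p under 0.05 (median estimate -0.78), and their part in the values of the 9 genes was not tested. The comparison of exercised with sedentary ancestry asked whether the sedentary descendants differed by what their forebears had done. None of the 9 genes passed in F1, in F2, over both generations, or in the test of the difference between the 2 effects, where 0% of all genes passed with limma. No gene of the 9 had an unadjusted p under 0.05 in any of these, against 4.88% of all genes in F1, 4.45% in F2, 4.99% over both and 4.34% for the difference. All 9 intervals included 0 in each comparison. Over both generations the estimates ran from -0.21 (Mt2) to 0.12 (Ddit4), with a median of -0.06 over the 9 genes against 0.01 over all genes, and the intervals stayed within -0.63 and 0.65.

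Fbxo32 had the smallest p among estimates below 0 in F1, and Klf15 in F2 and over both generations. Fbxo32 had 8.77 and 9.05 in F1 EX against 9.14 and 9.21 in F1 SED, groups that did not overlap, a difference of -0.26 (95% interval -0.57 to 0.04, limma adjusted p = 0.804). In F2 it had 8.93 and 8.79 in EX against 8.82 and 8.93 in SED, which overlapped (-0.02). Klf15 had 6.32 and 6.69 in F1 EX against 6.76 and 6.62 in F1 SED, which overlapped, and 6.84 and 6.70 in F2 EX against 7.13 and 6.86 in F2 SED, which did not. Its estimates were -0.19 in F1, -0.23 in F2 and -0.21 over both (95% interval -0.45 to 0.03, limma adjusted p = 0.888).

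Ddit4 had estimates of opposite sign in the 2 generations. It had 6.32 and 5.37 in F1 EX against 5.61 and 4.94 in F1 SED, a difference of 0.57 (95% interval -0.08 to 1.23), in which the pools overlapped. In F2 it had 5.61 and 5.80 in EX against 6.07 and 6.01 in SED, where both EX pools lay below both SED pools, a difference of -0.34 (-0.99 to 0.32). The difference between the effects, F2 minus F1, was -0.91 (95% interval -1.83 to 0.02, unadjusted p = 0.0539, limma adjusted p = 0.919). With F1 EX pool 1 as the only F1 EX pool, the array that stood apart, the F1 difference was 1.04 (limma adjusted p = 0.0377), in a fit that called 1046 genes, and with F1 EX pool 2 as the only one it was 0.10.

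Mt2 in F1 EX was split between its pools, at 6.52 and 5.41, on either side of F1 SED at 6.07 and 6.23. Its F1 estimate of -0.18 (95% interval -0.82 to 0.45) was 0.37 without pool 2 and -0.74 without pool 1. In F2 it had 6.19 and 6.25 in EX against 6.53 and 6.40 in SED, which did not overlap, a difference of -0.24 (-0.88 to 0.39). Mt1 differed by -0.10 in F1 and -0.09 in F2, with 7.28 and 6.99 in F1 EX against 7.41 and 7.06 in F1 SED, and 7.18 and 7.32 in F2 EX against 7.29 and 7.40 in F2 SED.

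Of the remaining genes, Trim63 had estimates of 0.01 in F1 and 0.07 in F2, Foxo3 0.06 and 0.03, Foxo1 0.02 and -0.13, and Cebpd -0.01 and 0.22. Trim63 had 8.55 and 8.42 in F1 EX against 8.45 and 8.50 in F1 SED. Cebpd had 3.49 and 3.52 in F2 EX against 3.01 and 3.56 in F2 SED, so that 1 pool of F2 SED set its estimate, and all these groups overlapped. Foxo1 in F2 had 6.27 and 6.09 in EX against 6.32 and 6.31 in SED, which did not overlap. In all, pools of the 2 ancestries did not overlap for 1 of 9 genes in F1 (Fbxo32, below in EX), against 29.6% of all genes, 13% above and 16.6% below. In F2 they did not overlap for 4 of 9 (Ddit4, Foxo1, Klf15 and Mt2, each below in EX), against 40.4% of all genes, 25.8% above and 14.6% below. With the 4 EX pools set against the 4 SED pools none of the 9 was without overlap, against 3.03% of all genes, 1.75% above and 1.28% below. For genes of the 10 related lists, 0 of 143 passed in any of these comparisons with limma, and 5 had an unadjusted p under 0.05 in F1, 2 in F2 and 3 over both. The 3 over both generations were Mt3, Cebpa and Asb2. The metallothionein Mt3 had an estimate of -0.28 (unadjusted p = 0.0128, limma adjusted p = 0.888), Cebpa had -0.26 and Asb2 had -0.21. Fkbp5, a glucocorticoid-induced chaperone, had -0.32, with an unadjusted p of 0.0577 with limma.

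**Figure D5:**
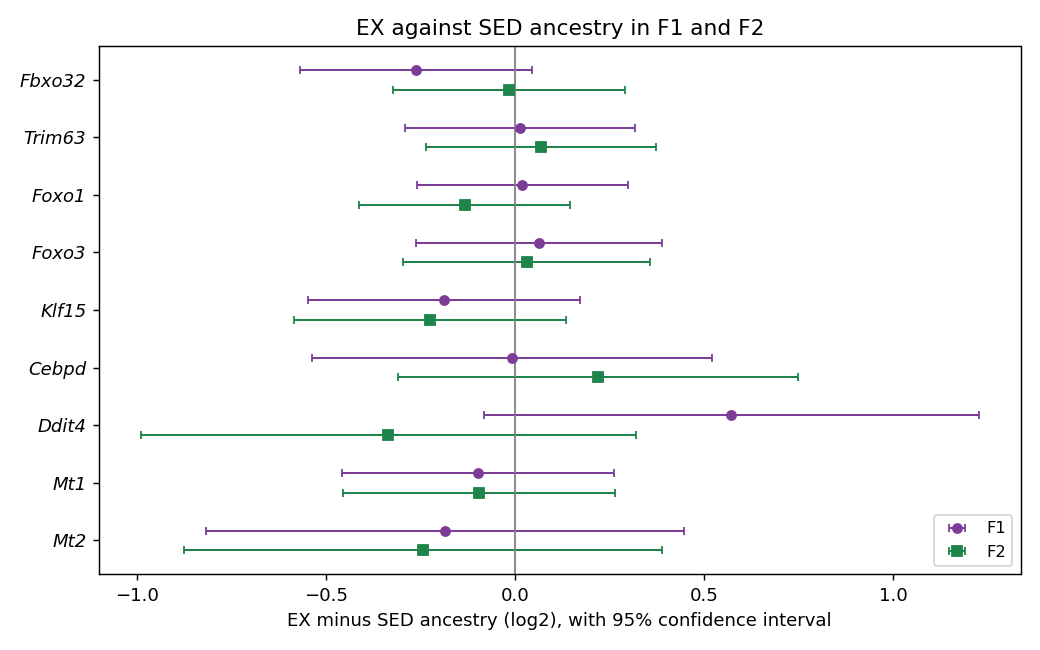
EX minus SED ancestry on the log2 scale (x axis) with 95% confidence intervals for the 9 genes in F1 (circles) and F2 (squares). Every interval shown includes 0, and Ddit4 has estimates of 0.57 in F1 and -0.34 in F2.

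F2 was also compared with F1, both 8 weeks old. None of the 9 genes passed, and 1 had an unadjusted p under 0.05, against 4.25% of all genes, of which 0 passed with limma. That gene was Klf15, with 6.84, 6.70, 7.13 and 6.86 in F2 against 6.32, 6.69, 6.76 and 6.62 in F1, which overlapped only through F2 EX pool 2. The difference was 0.29 (95% interval 0.05 to 0.53, unadjusted p = 0.0232, limma adjusted p = 0.911), and it lay between 0.22 and 0.36 in 16 alternatives. The other estimates ran from -0.18 for Fbxo32 to 0.31 for Ddit4, whose mean was 5.87 ± 0.21 in the 4 F2 pools and 5.56 ± 0.57 (SD) in the 4 F1 pools. Pools of the generations overlapped for each of the 9 genes, against 2.88% of all genes without overlap, 1.77% above and 1.11% below. Among the related genes, 13 of 143 had an unadjusted p under 0.05 and 0 passed with limma. They included Mybph, with an estimate of 0.45 and the smallest limma adjusted p (0.785), and Myog with 0.34. Others were the FoxO target Sesn1, a stress-induced inhibitor of mTORC1 signalling, with 0.51 (limma adjusted p = 0.897), and the glucocorticoid-induced Errfi1 with 0.35.

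The genes whose pattern over the 10 arrays was most like that of the 4 most variable genes were named as a description, since the arrays share groups and the pair that stood apart. For Ddit4 they were Adamts20 (Pearson r = 0.94), Usb1 (0.93) and the endothelial adhesion gene Esam (0.93), which had 6.17 in the F0 EX pool and 6.14 in the F0 SED pool, against 6.39 to 6.88 in descendants. For Fbxo32 they were Tmem100 (0.96), Mr1 (0.95) and the retinaldehyde dehydrogenase Aldh1a1 (0.94). All 3 were highest in F0 EX, which picking them by likeness to Fbxo32 favours, so it adds no support. Tmem100 had 7.56 in F0 EX, 6.55 in F0 SED and 6.14 to 6.45 in descendants. Aldh1a1 had 9.62 in F0 EX, 8.90 in F0 SED and 8.37 to 8.82 in descendants. For Mt2 they were Asl (0.96), Amigo2 (0.93) and Fads6 (0.89), and for Cebpd Ndufc2 (0.96), Bicc1 (0.95) and Spry4 (0.94).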

How the data were processed

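RNA pools of mouse gastrocnemius were hybridised to Affymetrix arrays. The authors deposited log2 probe set signals, a scale read from their range of 0.97 to 14.23 over 35557 probe sets. Per the submitters' processing notes the software was Affymetrix Expression Console; no source used here states its background correction, normalization, summarization or build. Values were used as deposited. The number of arrays limits the precision, as do pooling and the arrays that stood apart.

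The platform annotation, possibly outdated, named a single gene for 21789 probe sets, more than 1 for 1621 and no gene for 12147. All 9 genes matched a RefSeq table (GRCm38.p6) by Entrez number. The highest-mean probe set stood for a gene, and genes at or above the 40th percentile of mean signal were kept. limma 3.58.1 in R 4.3.3 (lmFit, eBayes) was fitted to all kept genes. The code was run on simulated data with independent noise and no array that stood apart, which does not test the fits under the spread seen here. Ancestry and F2 against F1 came from an additive model of 8 arrays, single-generation effects and their difference from group means of the same arrays, and F0 from an additive model of 10 arrays. Samples were grouped by their titles. Related genes were named by adjusted p, up to 4 that passed per list, otherwise up to 2 with the smallest p; of those that did not pass, a selection is given. Most similar genes were the 3 with the highest Pearson r for the 4 most variable genes, without uncharacterised products. The genes and lists were chosen with earlier results of these data known. Alternatives changed scaling, filter, variance model, array weights, arrays and the pool number as a block.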

Additional observations from a re-analysis of the deposited data

Results flagged for a closer look

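Among 45 sets of 4 or 8 pools of the 9 genes, 2 held a pool far from the others; chance marks about 1 set in 20. Mt2 was 5.41 in F1 EX pool 2, with the nearest of the 8 descendant pools at 6.07. Cebpd was 3.01 in F2 SED pool 1, with the nearest of the 4 F2 pools at 3.49.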

How the results depend on the processing

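Over 876 alternative estimates of the 9 genes, 67 had another sign than the reported one, and in 0 of these did the reported 95% interval exclude 0. In F0 against descendants 1 of 9 genes passed, in place of 0, with quantile normalization (Fbxo32), without both arrays that stood apart (1, Fbxo32; a setting chosen after seeing the data), and in 4 of 10 fits that left out 1 array, whose counts ranged from 0 to 1. These were Fbxo32 without F0 SED, Foxo3 without F0 EX, and Ddit4 without F1 EX pool 1 or F1 SED pool 2. In F1 the count ranged from 0 to 1 when 1 array was left out, with Ddit4 passing without F1 EX pool 2. All other counts of the 9 genes kept their value in the alternatives run, and 3 of 9 genes were past 0.5 in the F0 pair under each scaling, with Mt2 in place of Klf15 under quantile normalization. Over all genes the count in F0 against descendants was 279, against 1231 without F0 EX, 86 without F0 SED, 584 without F1 EX pool 1, 170 without both arrays that stood apart, 38 with array weights, and between 181 and 303 otherwise. In place of 0, 8 genes passed in F1 without F1 SED pool 1 and 1046 without F1 EX pool 2, 5 and 143 in the difference of the effects without those pools, and 1 or 2 in F2 against F1 with array weights or with trend and robust settings. With the F0 pair included, the EX minus SED estimate over F0, F1 and F2 was 0.06 for Fbxo32 and -0.10 for Foxo3. That fit joined the F0 EX mice's own exercise with ancestry in 1 estimate, so it does not measure ancestry alone. With the 60th percentile filter Cebpd was not tested, and no gene had another probe set to try. Same-numbered pools did not deviate together over the kept genes (r from -0.11 to 0.06). The labels do not say what a pool number stands for, and these values cannot show that same-numbered pools shared nothing. With the replicate block 0 of 9 genes passed in each comparison of descendants.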
